A study of Mus musculus with 11 samples.

Results

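The circadian clock genes examined in these livers were 10 genes: the activators Arntl (also named Bmal1), Clock and Npas2, the repressors Per1, Per2, Per3, Cry1, Nr1d1 and Ciart, and the output factor Dbp. They were chosen by name, and every probe that the RefSeq accessions of the array assign to them was taken, which gave 19 of the 56605 probes on the array. A probe was tested if its signal stood well above background on 2 or more of the 11 arrays, which 18 of the 19 and 36055 probes in all did. Each gene was represented by its brightest tested probe, so 10 of the 16630 named genes tested were clock genes. The probe left out belongs to Arntl and reached that level on 0 of 11 arrays.

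Liver RNA came from male C57Bl6/J mice that were 8 weeks old when AAV8 vectors, viruses that reach hepatocytes efficiently, were injected into the peritoneal cavity, and the tissue was taken on day 5. The GFP group (3 arrays) received 6e+11 viral genomes of a GFP vector. The NICD1 and NICD2 groups (3 arrays each) received 3e+11 of a vector for the intracellular domain of Notch1 or Notch2, the active form of each receptor, together with 3e+11 of the GFP vector. The NICD1&2 group (2 arrays) was given both NICD vectors at 3e+11 each, without the GFP vector. All animals thus carried AAV8 at the same total dose, and the transgenes were driven by the CMV promoter, which is not restricted to hepatocytes. The hour at which the livers were collected is not given in the sources used here, and for genes that follow the time of day it cannot be told apart from the group if it differed between groups. Whether each array is a separate mouse is not stated in the labels, so p-values measure the spread between these arrays.

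The clock is a feedback loop inside each cell. Arntl pairs with Clock, or with its relative Npas2, and the pair binds E-box sequences and switches on the Per and Cry genes, Nr1d1, Dbp and Ciart. Per and Cry proteins then return to the nucleus and block the pair, Nr1d1 represses Arntl, and Ciart also inhibits the Arntl and Clock pair, so that activator and repressor transcripts peak in different parts of the day. In liver the loop sets daily rhythms of genes of bile acid, lipid, glucose and drug metabolism, and Dbp passes the rhythm to many of them through D-box sequences.

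Short stretches of the promoters are shown because they place the motifs through which the loop is known to act beside the genes whose values follow. In windows of 300 bases around annotated starts (RefSeq, GRCm38.p6), 9 of the 10 genes were represented, and Per2 was not. Both strands were searched for the E-box CACGTG, the non-canonical E-box CACGTT, the D-box TTATGTAA or TTACGTAA, and the element TAGGTCA or TGGGTCA bound by ROR and NR1D factors. Capitals mark the matches, and the sequences run 5′ to 3′ along the strand of the gene.
Ciart, chr3:95882247-95882374, minus strand: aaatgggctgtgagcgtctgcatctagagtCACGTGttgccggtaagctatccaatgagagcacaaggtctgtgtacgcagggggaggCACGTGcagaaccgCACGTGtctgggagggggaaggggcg
Cry1, chr10:85185089-85185163, minus strand: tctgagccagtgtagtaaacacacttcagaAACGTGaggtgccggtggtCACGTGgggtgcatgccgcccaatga
Per1, chr11:69098753-69098808, plus strand: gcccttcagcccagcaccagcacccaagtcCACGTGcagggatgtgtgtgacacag
Nr1d1, chr11:98775380-98775435, minus strand: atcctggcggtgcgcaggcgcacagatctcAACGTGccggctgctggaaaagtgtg
Per3, chr4:151044796-151044900, minus strand: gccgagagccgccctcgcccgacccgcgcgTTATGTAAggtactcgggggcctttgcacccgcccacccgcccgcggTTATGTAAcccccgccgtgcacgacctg

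All 5 stretches lie upstream of an annotated start. The Ciart window held 3 E-boxes, at -116, -58 and -44 from the start, where 7.15% of 32851 promoter windows held any and 29 of them (0.0883%) held at least 3. Cry1 held 1 E-box at -60 beside a non-canonical one at -79. Per1 held 1 E-box at -166 from an annotated start that lies inside the gene. Nr1d1 held a non-canonical E-box at -28, a form found in 4.68% of windows. The windows of Arntl, Clock, Npas2, Per3 and Dbp held neither form. The Per3 window held 2 D-boxes, where 1.06% of windows held any and 8 (0.0244%) held at least 2. A ROR element, found in 6.45% of windows, lay at 30 bases after a start of Arntl. The core RBPJ sequence TGGGAA, to which Notch complexes are known to bind, occurred in windows of Npas2 and Per1 and in 25.6% of all windows. These matches describe the letters in the windows and were not measured as binding.

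All values are log2 of the processed signal less the 75th percentile of the array, so 1 unit is a doubling, and levels of different probes are not comparable. The share of spots with signal well above background was 57.0% to 62.0%, with 0 saturated. The 7 hepatocyte markers had a summed level between 11.69 and 12.14 on every array, the 8 leukocyte markers between 4.85 and 5.33, the 6 endothelial and stellate markers between 3.90 and 4.22, and the 3 bile duct markers between -1.46 and -0.52. The hepatocyte sum was 11.90 to 11.97 with GFP and 12.04 to 12.14 with NICD1&2, without overlap, while NICD1 and NICD2 overlapped with GFP. The bile duct sum was -1.46 to -1.16 with GFP, -1.08 to -0.94 with NICD1, -1.38 to -0.74 with NICD2 and -1.11 to -0.52 with NICD1&2, so that the NICD1 and NICD1&2 arrays lay above the GFP arrays. Of the 8 leukocyte markers 0, 3 and 3 had a difference from GFP above 0 with NICD1, NICD2 and NICD1&2. Lyve1, a marker of sinusoidal endothelium, was the 1 marker that met the study's definition of an altered gene (P under 0.15 and more than 1.8-fold), with 0.86 with NICD2 and 0.93 with NICD1&2 against GFP (limma adjusted p = 0.286 and 0.162), and the part of these markers in the clock gene values was not tested. The arrays lay on 2 slides, each of which held all 4 groups. Slide 2 held GFP 3, NICD2 3 and NICD1&2 2 as the only arrays of their groups, so its differences between these groups compare single arrays. These were bulk samples, in which fewer cells of a type and less RNA per cell cannot be told apart. The Notch target Hes1 read -3.06 to -1.77 with GFP, -3.12 to -1.84 with NICD1, -1.42 to -0.08 with NICD2 and -1.15 to -1.11 with NICD1&2. Of 7 Notch receptors and targets, 1 met the study's definition with NICD1 (Nrarp), 2 with NICD2 (Hes1 and Nrarp) and 3 with NICD1&2 (Hes1, Nrarp and Sox9), all higher, with limma adjusted p between 0.0723 and 0.840, beside 1.75%, 1.75% and 5.14% of all genes. Nrarp, a Notch target that dampens the pathway, read -6.93, -6.43 and -4.61 with GFP, not well above background on any of these arrays. Without Nrarp, whose GFP level is thus not known, the counts were 0, 1 and 2 of 6. Nrarp read -3.90, -3.83 and -5.20 with NICD1, of which the last was not well above background, between -2.69 and -2.10 with NICD2, and -1.86 and -1.85 with NICD1&2. Probes of Notch1 and Notch2 do not serve as a check of the vectors, since their position relative to the cloned parts was not examined.

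Forced NICD1 or NICD2 expression was accompanied by no clock gene difference that passed an adjusted p of 0.05 in limma. In each of the 6 comparisons the number called was 0 of 10, where few of all named genes were called (0.012% for NICD1, 0.0782% for NICD2 and 0.132% for NICD1&2 against GFP, 0.00601% for NICD1 against NICD2, 0.012% for NICD1&2 against NICD1 and 0% for NICD1&2 against NICD2). At an unadjusted p under 0.05 the counts were 0, 5 (Ciart, Per1, Per2, Per3 and Npas2) and 3 (Ciart, Cry1 and Per1) of 10 for NICD1, NICD2 and NICD1&2 against GFP, beside 5.86%, 7.73% and 16.8% of all genes. They were 1, 2 and 2 of 10 for NICD1 against NICD2, NICD1&2 against NICD1 and NICD1&2 against NICD2, beside 4.25%, 14.1% and 8.59%, and without Npas2, which no NICD array measured, they were 1, 2 and 1 of 9. By the wider definition that the study used for altered genes, P under 0.15 before adjustment and a change of more than 1.8-fold, the counts were 0 of 10 with NICD1 (1.75% of all genes), 3 of 10 with NICD2 (Ciart and Per1 higher, Npas2 lower; 1.75% of all genes) and 1 of 10 with NICD1&2 (Ciart higher; 5.14% of all genes). The 3 comparisons share the GFP arrays. Npas2 passed the filter only through 2 GFP arrays and was not well above background on any NICD array, so its part in the counts against GFP compares measured with unmeasured signals. Without Npas2 the counts against GFP by the study's definition were 0, 2 and 1 of 9, and those at an unadjusted p under 0.05 were 0, 4 and 3 of 9. The median log2 difference of the 10 genes was 0.02, 0.14 and 0.13, beside 0.002, 0.02 and 0.12 for all genes, and 6 of 10 genes lay above 0 in each, where 50.5%, 55.1% and 66.6% of all genes did. Without Npas2 the medians were 0.02, 0.26 and 0.22, and 6, 6 and 5 of 9 genes lay above 0.

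**Figure D1:**
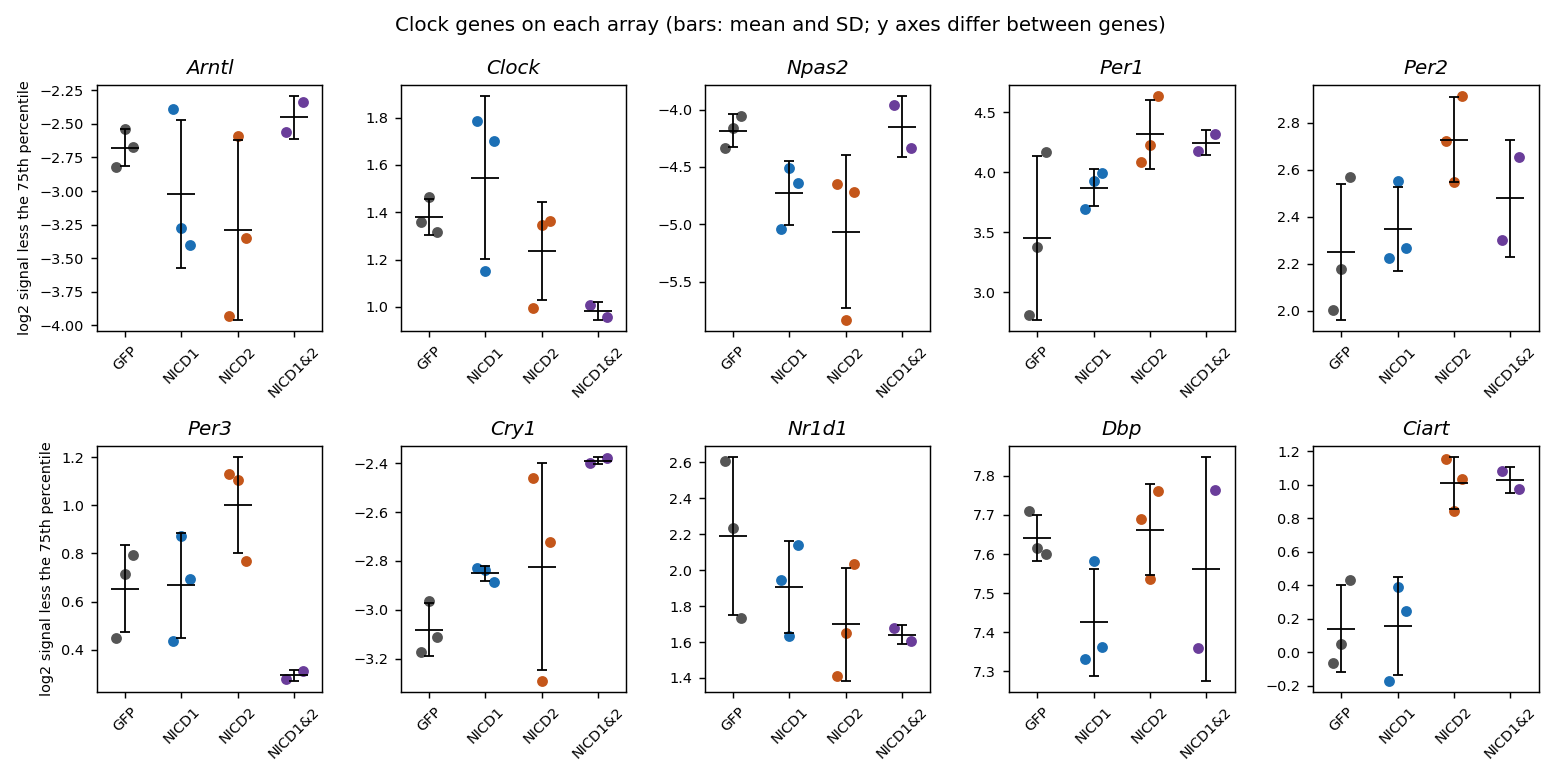
Log2 signal less the array's 75th percentile (y axis, a separate scale for each gene) of the 10 clock genes on each array (points), by group (x axis), with the group mean and SD as bars. Ciart lies between 0.84 and 1.15 on the NICD2 and NICD1&2 arrays and between -0.17 and 0.43 on the GFP and NICD1 arrays, while the groups of Arntl and Per2 overlap with those of GFP.

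Ciart, an inhibitor of the Arntl and Clock pair whose rhythm in liver is strong, had the same pattern on both of its probes. Its values were -0.06, 0.05 and 0.43 with GFP, -0.17, 0.39 and 0.25 with NICD1, 1.15, 0.84 and 1.04 with NICD2, and 1.08 and 0.98 with NICD1&2. The NICD1 arrays overlapped with the GFP arrays, and every array with the NICD2 vector lay above every array without it. Against GFP the log2 difference was 0.87 with NICD2 (a fold change of 1.83, standard error 0.18, 95% interval 0.46 to 1.28, limma adjusted p = 0.225) and 0.89 with NICD1&2 (fold change 1.85, standard error 0.20, interval 0.44 to 1.34, adjusted p = 0.152). With NICD1 it was 0.02, with an interval from -0.39 to 0.42. Both differences were smaller than the differences on slide 1 (1.0 and 1.09) and larger than those on slide 2 (0.60 and 0.54). They lay above 0 on both slides, but those on slide 2 compare single arrays (NICD2 3 and NICD1&2 2 with GFP 3). With normexp background correction and quantile normalization the difference was 0.70 with NICD2 (adjusted p = 0.0371) and 0.77 with NICD1&2 (adjusted p = 0.0196). The share of all genes called in that setting is not given here. Ciart was called there although its fold change was below 1.8. The fold change also fell short of 1.8 with the percentile taken over the probes detected on every array (0.84 and 0.81) and without GFP 1 (0.77 and 0.79) or GFP 2 (0.82 and 0.84). So did that of NICD2 without NICD2 1 (0.80), and that of NICD1&2 without NICD1&2 1 (0.84) or with the mean of both probes (0.78).

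The other Ciart probe gave the same split. It read -2.57, -1.93 and -1.93 with GFP, -2.21, -1.82 and -1.8 with NICD1, -1.0, -1.33 and -1.47 with NICD2, and -1.26 and -1.68 with NICD1&2. The 5 arrays with the NICD2 vector again lay above the 6 without it, now with a gap from -1.8 to -1.68. Its log2 difference from GFP was 0.88 with NICD2 (standard error 0.22, adjusted p = 0.362) and 0.68 with NICD1&2 (standard error 0.25, adjusted p = 0.279). The division of the arrays by the NICD2 vector was chosen after these values were seen. Of all 16630 genes, 276 (1.66%) lay higher on all 5 arrays and 68 (0.409%) lay lower, and Ciart was the 1 of the 10 clock genes that separated in this way.

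Between the NICD groups, Ciart differed by -0.85 for NICD1 against NICD2 (standard error 0.18, adjusted p = 0.776) and by 0.87 for NICD1&2 against NICD1 (standard error 0.20, adjusted p = 0.327). Both met the study's definition, which 1.06% and 2.22% of all genes did. The other Ciart probe met it in neither, with -0.68 and 0.48. NICD1&2 and NICD2 differed by 0.02, with an interval from -0.43 to 0.47. The interaction of both vectors, that is the NICD1&2 effect less the sum of the single effects, was 0.004 for Ciart on the log2 scale (standard error 0.27, adjusted p = 0.998) and -0.40 on its other probe (standard error 0.33).

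Per1, a repressor that light, feeding and glucocorticoids are known to induce quickly, was 2.81, 3.38 and 4.17 in the GFP group. It was 3.70, 3.93 and 3.99 with NICD1, 4.09, 4.23 and 4.64 with NICD2, and 4.18 and 4.32 with NICD1&2. GFP had the widest spread of the 4 groups (SD 0.69, against 0.16, 0.29 and 0.10), with GFP 3 at the level of the NICD2 group. The difference from GFP was 0.86 with NICD2 (standard error 0.30, adjusted p = 0.602), 0.79 with NICD1&2 (standard error 0.34, adjusted p = 0.326) and 0.42 with NICD1 (interval -0.27 to 1.1). The NICD2 difference was 0.54 without GFP 1 and 1.22 without GFP 3, and it was 1.06 on slide 1 and 0.46 on slide 2 (NICD2 3 against GFP 3 alone). The NICD1&2 arrays lay above all GFP arrays only by the distance from 4.17 to 4.18.

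Per2, which works with Per1 in the same repressor complex, read 2.00, 2.18 and 2.57 with GFP and 2.22, 2.55 and 2.27 with NICD1. It read 2.72, 2.55 and 2.91 with NICD2 and 2.30 and 2.66 with NICD1&2. Each NICD group overlapped with GFP. The NICD2 difference from GFP was 0.48 (standard error 0.18, interval 0.07 to 0.89, limma adjusted p = 0.652). The order of the group means was GFP, NICD1, NICD1&2 and NICD2 for Per2 and for Per1, and in neither gene did a NICD group pass the adjusted test against GFP.

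Per3, the Per gene with the weakest known part in keeping the rhythm, was 0.45, 0.71 and 0.79 with GFP and 0.44, 0.87 and 0.69 with NICD1. It was 1.13, 1.1 and 0.77 with NICD2 but 0.28 and 0.31 with NICD1&2. The NICD1&2 arrays were thus below all other arrays. Per3 was lower with NICD1&2 than with NICD2 by -0.71 (standard error 0.17, unadjusted p = 0.00255, limma adjusted p = 0.547), which is a fold change of 1.64. A second Per3 probe, designed on another transcript, read between -2.58 and -2.40 with GFP, between -2.94 and -2.75 with NICD1, between -2.65 and -2.58 with NICD2, and at -3.06 and -3.31 with NICD1&2. Its difference from GFP was -0.67 with NICD1&2 (standard error 0.12, adjusted p = 0.0994), against -0.36 for the brighter probe (standard error 0.17, adjusted p = 0.359). On both probes the NICD1&2 arrays were the lowest of the 11.

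Cry1, the repressor that closes the loop with the Per proteins, was -3.17, -2.96 and -3.11 with GFP and -2.83, -2.84 and -2.89 with NICD1. It was -2.46, -3.29 and -2.72 with NICD2, and -2.40 and -2.38 with NICD1&2. The NICD1 and the NICD1&2 arrays lay above all GFP arrays, whereas NICD2 spanned both. The NICD1&2 difference from GFP was 0.69 (standard error 0.21, adjusted p = 0.224). A dimmer Cry1 probe read -4.26, -4.15 and -4.27 with GFP, -3.83, -3.85 and -4.12 with NICD1, -4.04, -4.44 and -4.22 with NICD2, and -3.45 and -2.97 with NICD1&2. There the NICD1&2 arrays lay above the other 9, with a difference from GFP of 1.01 (standard error 0.17, adjusted p = 0.0954) and from NICD2 of 1.02 (standard error 0.17, adjusted p = 0.508). This probe met the study's definition in both, while the brighter one did not, with 0.43 against NICD2.

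**Figure D2:**
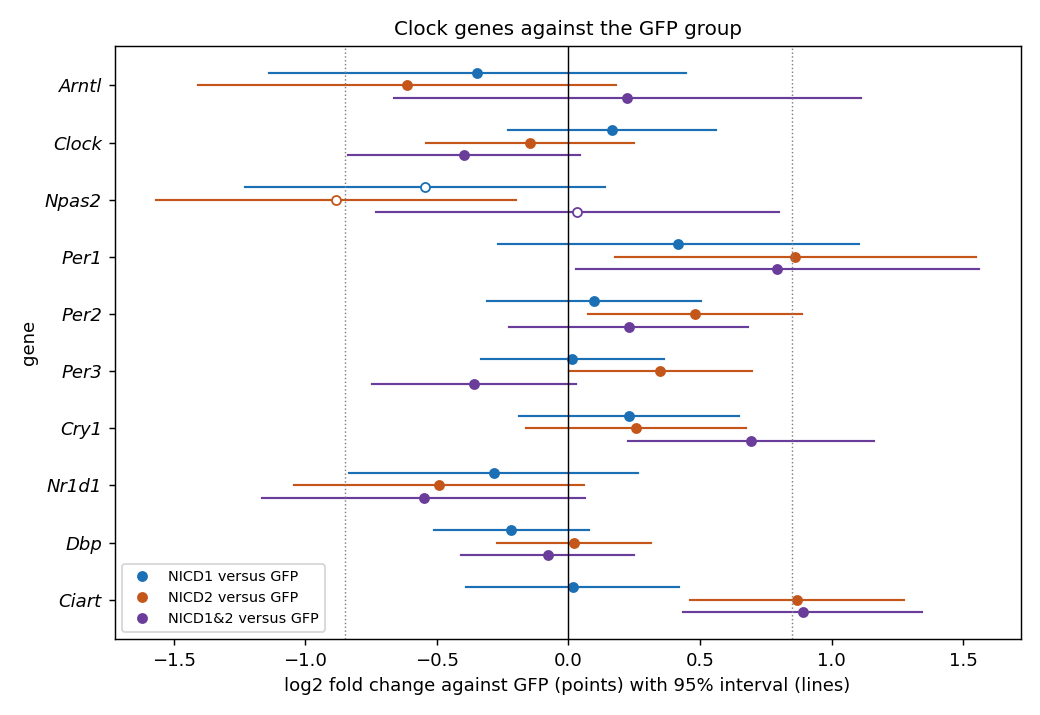
Log2 fold change against GFP (x axis; points) of each clock gene (y axis) with its 95% interval from limma (lines), in colours for NICD1, NICD2 and NICD1&2. Dotted lines mark a fold change of 1.8, and the open points of Npas2 stand for a probe that was well above background on 2 of 11 arrays. Ciart lies at 0.87 with NICD2 and 0.89 with NICD1&2, and 7 of the 10 NICD2 points lie inside the dotted lines. With NICD2 the intervals of Ciart, Per1, Per2, Per3 and Npas2 are clear of 0, and with NICD1&2 those of Ciart, Per1 and Cry1.

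Nr1d1, the nuclear receptor that represses Arntl, read 2.61, 2.24 and 1.73 with GFP and 1.95, 1.63 and 2.14 with NICD1. It read 1.41, 1.65 and 2.04 with NICD2, and 1.68 and 1.6 with NICD1&2. GFP 3 was the lowest GFP array for Nr1d1 and the highest for Per1 and Ciart. The NICD1&2 arrays lay below all GFP arrays, from 1.68 to 1.73 at the nearest, and the difference was -0.55 (interval -1.16 to 0.06, adjusted p = 0.371). For NICD2 the within-slide differences from GFP had opposite signs, -0.89 on slide 1 and 0.31 on slide 2, the latter from NICD2 3 against GFP 3 alone.

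Dbp, the D-box factor driven directly by Arntl and Clock, was 7.71, 7.61 and 7.60 with GFP and 7.33, 7.58 and 7.36 with NICD1. It was 7.69, 7.54 and 7.76 with NICD2, and 7.36 and 7.76 with NICD1&2. Dbp spanned 0.43 over all 11 arrays, the narrowest range of the 10 genes, against 1.83 for Per1. The NICD1 arrays lay just below the GFP arrays, by -0.22 in the mean (interval -0.51 to 0.08). The difference was 0.02 with NICD2 (interval -0.27 to 0.31) and -0.08 with NICD1&2 (interval -0.41 to 0.25).

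Among the activators, Arntl was -2.82, -2.54 and -2.67 with GFP, and -2.39, -3.28 and -3.40 with NICD1. It was -3.93, -2.59 and -3.35 with NICD2, and -2.56 and -2.34 with NICD1&2. In the NICD1 and NICD2 groups 1 array each (NICD1 1 and NICD2 2) lay within or above the GFP values while the other 2 were lower, so that the SD was 0.55 and 0.67 against 0.14 with GFP. The differences from GFP were -0.35 with NICD1, -0.61 with NICD2 and 0.22 with NICD1&2, and each interval crossed 0. The dimmer tested Arntl probe had differences of -0.12, -0.34 and 0.30 but another pattern over the arrays, with an SD of 0.65 with GFP, 0.04 with NICD1 and 0.52 with NICD2, and with NICD2 2, where it was not well above background, as its lowest array.

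Clock, the partner of Arntl, was 1.36, 1.46 and 1.32 with GFP and 1.79, 1.15 and 1.70 with NICD1. It was 1.0, 1.35 and 1.36 with NICD2, and 1.01 and 0.96 with NICD1&2. The NICD1&2 arrays lay below all GFP arrays, by -0.40 in the mean (standard error 0.20, adjusted p = 0.369). A second Clock probe gave -0.38 (standard error 0.14, adjusted p = 0.289), again without overlap, while the dimmest, well above background on 10 of 11 arrays and on all arrays of both groups, gave 0.32.

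Npas2, a relative of Clock that can take its place, stood well above background on 2 GFP arrays of 3 and on 0 of the 8 NICD arrays. Its measured values were -4.34, -4.16 and -4.05 with GFP, -5.04, -4.51 and -4.64 with NICD1, -4.65, -5.84 and -4.72 with NICD2, and -3.96 and -4.34 with NICD1&2. The level in the NICD groups is thus not known. The fit, which takes these signals as they stand, gave a NICD2 difference of -0.88 (standard error 0.30, adjusted p = 0.592), which became -0.08 with normexp correction. The NICD1&2 arrays overlapped with GFP. Against NICD2 they met the study's definition (0.92, standard error 0.34, limma adjusted p = 0.560), at signals that were not well above background in either group. Npas2 was the 1 clock gene of 10 to meet it in that comparison, which 2.22% of all genes did. Without Npas2 the count was 0 of 9.

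Without regard to size, the arrays of a NICD group and of GFP did not overlap for 3 of 10 genes with NICD1 (Cry1 higher, Dbp and Npas2 lower; 14.1% of all genes), 2 of 10 with NICD2 (Ciart higher, Npas2 lower; 16.2%) and 6 of 10 with NICD1&2 (Ciart, Per1 and Cry1 higher, Nr1d1, Clock and Per3 lower; 37%). Without Npas2, whose NICD signals were not well above background, these counts were 2, 1 and 6 of 9. Exact permutation of single genes, with the smaller tail doubled for a two-sided p, cannot go below 0.1 for 3 arrays against 3 and below 0.2 for 2 against 3, the values obtained for these genes. Over all tested genes the NICD1&2 arrays were shifted upward, with a median of 0.12 against GFP that was 0.02 under quantile normalization. The median of the clock genes in that comparison was -0.05 under quantile normalization.

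Of the 7 genes with more than 1 tested probe, the probes shared a sign in 15 of 21 pairs of gene and comparison against GFP. The 6 pairs that did not were Clock with NICD2 and with NICD1&2, Cry1 with NICD2, Dbp with NICD1&2, and Per3 with NICD1 and with NICD2. For Ciart, Per2 and Arntl the tested probes shared their sign in each comparison against GFP.

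**Figure D3:**
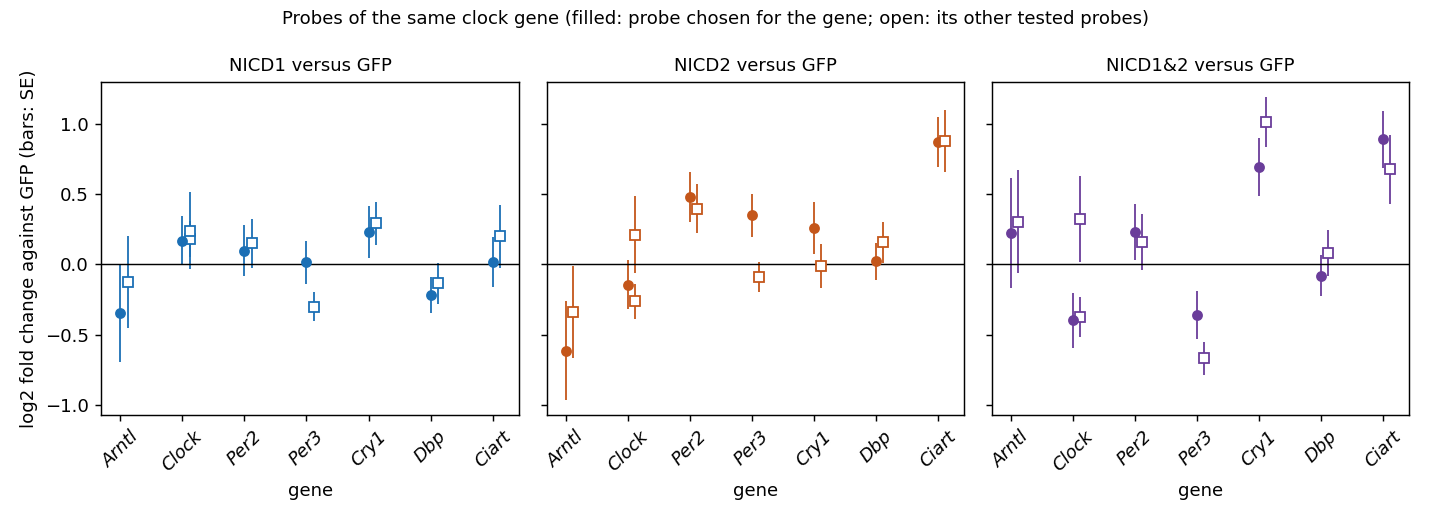
Log2 fold change against GFP (y axis) with its standard error (bars) for each tested probe of the 7 clock genes with more than 1 (x axis), in a panel for each NICD group. Filled circles are the brightest probe and open squares the others. Both Ciart probes lie above 0.6 with NICD2 and NICD1&2, and in these 2 panels the Clock probes lie on both sides of 0.

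None of the 10 genes departed from additivity of the vectors after adjustment. The interaction was 1.46 for Npas2 (unadjusted p = 0.0104), which rests on signals near background, -0.72 for Per3 (standard error 0.23, unadjusted p = 0.0118) and 1.18 for Arntl (standard error 0.53, unadjusted p = 0.0509). On the other tested probe it was -0.28 for Per3 (standard error 0.16) and 0.77 for Arntl (standard error 0.49). The dimmer Cry1 probe gave 0.73 (standard error 0.23, limma unadjusted p = 0.0123, adjusted p = 0.690), against 0.20 on the brighter one (standard error 0.28). The lowest limma adjusted p among the 10 was 0.670, and 0 of all 36055 probes were called, with 2536 at an unadjusted p under 0.05.

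Arntl and several of the genes it drives, such as Nr1d1, Dbp and the Per genes, peak at different times of day, and each of the other 9 genes was set against Arntl across the 11 arrays. Arntl was taken by its brighter probe. The dimmer tested probe had another pattern over the arrays, with NICD2 1 at -3.74 against -3.93 and NICD2 2 at -4.77 against -2.59. No relation is given for the dimmer probe. None of the 9 relations passed adjustment. Over the 11 arrays the largest r in size was with Per3 (Pearson r = -0.60, permutation p = 0.0522, adjusted p = 0.470, and Spearman rho = -0.60, permutation p = 0.0571, adjusted p = 0.514). With normexp and quantile normalization the r of Per3 was -0.33. Ciart (-0.52), Per2 (-0.46), Clock (0.43) and Cry1 (-0.36) were then larger in size, and none passed adjustment. Without NICD2 1 and NICD1 3, the arrays farthest from the median of Arntl, the r of Per3 was -0.45. Within the 6 arrays of slide 1 it was -0.59, where Per2 (-0.65), Clock (0.63) and Dbp (-0.61) were larger in size. Over deviations from the group means the r of Per3 was -0.26. Other genes had larger values over these deviations, -0.67 for Ciart, -0.65 for Cry1, 0.58 for Clock, -0.32 for Dbp and, at signals not well above background on 9 of the 11 arrays, -0.84 for Npas2, which are given as a description with no test. No value was computed for slide 2, which held 5 arrays. Without NICD2 2 the relation with Per3 was -0.80 (permutation p = 0.00543, adjusted p = 0.0489 for r and 0.355 for rho), so its call depends on that array. Nr1d1, which represses Arntl, had r = 0.15, which was -0.22 without NICD2 1. Dbp had r = -0.21, between -0.41 without NICD1 3 and -0.05 without NICD1 1. Neither passed the test.

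As a description, the genes outside the clock list whose values followed Arntl most closely over the 11 arrays, among 13852 genes well above background on all of them, were Ddost (r = 0.88), Surf2 (0.88), Gm6329 (0.85), Ccdc33 (0.82) and Gm15230 (0.82). Those closest to Dbp were Fah (r = 0.93), Tead3 (0.92), Rab11b (0.90), Cmtm8 (0.89) and Cyp3a25 (0.88). All points share the arrays and their scaling, and Arntl stands here for its brighter probe only.

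The other clock factors, a list of 10 further genes of the loop, had 0 members called in each comparison against GFP. Their median difference was -0.08, 0.05 and 0.11 with NICD1, NICD2 and NICD1&2, and 1 of them met the study's definition, with NICD1&2 (5.14% of all genes). Arntl2, a relative of Arntl, was -2.24, -2.03 and -2.07 with GFP, -2.30, -2.47 and -2.55 with NICD1, -2.63, -2.46 and -2.41 with NICD2, and -2.95 and -3.57 with NICD1&2. All NICD arrays lay below the GFP arrays, and the NICD1&2 difference was -1.15 (standard error 0.18, adjusted p = 0.0723). Of 8 genes that act in the turnover of clock proteins, among them the casein kinases that mark Per for destruction, 0 met the definition with any NICD group, beside 1.75%, 1.75% and 5.14% of all genes, and the medians were 0.02, -0.02 and -0.001, and between -0.11 and 0.10 under all alternatives.

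Among 14 genes known to follow the clock in liver, the median difference was 0.04 with NICD1, 0.49 with NICD2 and 0.41 with NICD1&2, beside the 0.002, 0.02 and 0.12 of all genes. Without NICD1 1 the NICD1 median was 0.31, and without GFP 1 those of NICD2 and NICD1&2 were 0.30 and 0.22. Above 0 were 9, 11 and 12 of the 14, beside 50.5%, 55.1% and 66.6% of all genes, and 0 were called. Lpin1, a phosphatidate phosphatase and regulator of fat metabolism that also responds to fasting and glucocorticoids, was 2.54, 3.12 and 3.84 with GFP and 3.87, 4.78 and 4.97 with NICD1. It was 4.92, 5.55 and 5.5 with NICD2, and 5.5 and 5.05 with NICD1&2. Every NICD array lay above every GFP array. The difference from GFP was 1.37 with NICD1 (standard error 0.38, adjusted p = 0.752). It was 2.15 with NICD2, with a standard error of 0.38 and an adjusted p of 0.15, and 2.11 with NICD1&2, with a standard error of 0.43 and an adjusted p of 0.129. All met the study's definition.

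Nampt, the rate-limiting enzyme of NAD salvage, was 2.52, 2.63 and 2.70 with GFP and 3.39 and 3.74 with NICD1&2, a difference of 0.95 (standard error 0.21, adjusted p = 0.146). With NICD2 it was 3.09, 3.41 and 3.02, also above GFP, and with NICD1 it ranged from 2.52 to 3.18. Noct, a phosphatase acting on nicotinamide dinucleotides, met the definition with NICD1 (0.98, standard error 0.54, adjusted p = 0.907) and NICD2 (1.11, standard error 0.54, adjusted p = 0.778), but its GFP arrays read 2.68, 3.00 and 5.21, so that GFP 3 exceeded every NICD array, whose highest was 4.80. Rgs16, a regulator of G protein signalling, met it for NICD1 against NICD2 (-1.09, standard error 0.62, adjusted p = 0.9998), with NICD1 1 at 4.66 and the other 2 NICD1 arrays at 6.95 and 6.87.

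**Figure D4:**
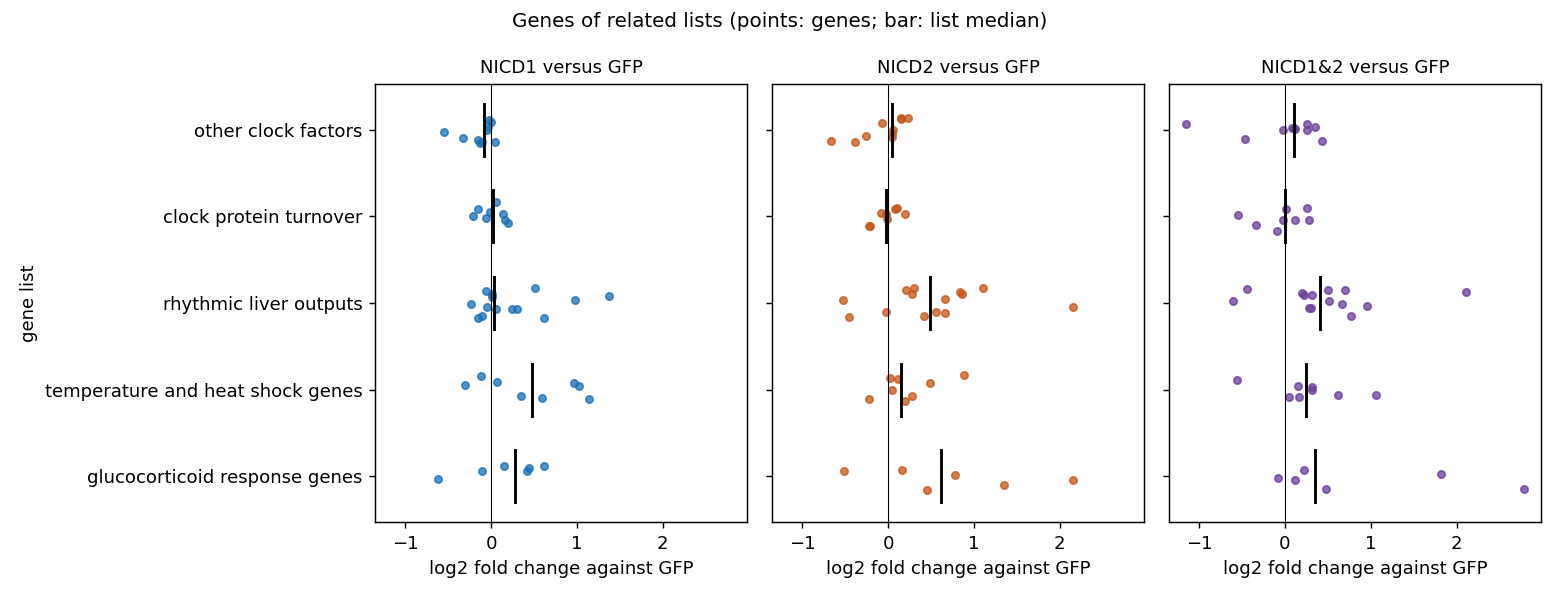
Log2 fold change against GFP (x axis, the same scale in each panel) of the genes of 5 related lists (y axis; points) with each list's median as a bar, in a panel for each NICD group. The rhythmic liver outputs have medians of 0.49 with NICD2 and 0.41 with NICD1&2, and the clock protein turnover genes lie around 0.

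Glucocorticoid response genes and heat shock genes were counted beside the clock, since hormone and temperature rhythms are known to act on Per1 and other clock genes. With NICD2 and NICD1&2, 2 of the 6 glucocorticoid response genes met the study's definition, and with NICD1 0 did, beside 1.75%, 5.14% and 1.75% of all genes. Fkbp5, a co-chaperone induced by the glucocorticoid receptor, was 1.87, 2.06 and 2.51 with GFP, 1.75, 3.34 and 3.20 with NICD1, 3.44, 3.4 and 3.66 with NICD2, and 4.20 and 3.72 with NICD1&2. NICD1 1 stood at the GFP level, apart from the other NICD1 arrays. The difference was 1.36 with NICD2 (standard error 0.38, adjusted p = 0.452) and 1.82 with NICD1&2 (standard error 0.43, adjusted p = 0.166).

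Zbtb16, a zinc finger factor with a strong glucocorticoid response, was 0.25, 0.04 and 0.64 with GFP, -0.44, 1.29 and 1.41 with NICD1, 1.53, 2.48 and 3.38 with NICD2, and 3.69 and 2.48 with NICD1&2. As with Ciart, the arrays with the NICD2 vector were above those without it, and NICD1 1 was the lowest of all. The NICD2 difference from GFP was 2.15 (standard error 0.60, adjusted p = 0.437). That of NICD1&2 was 2.78, with a standard error of 0.67 and an adjusted p of 0.171. The other 4 genes of the list, Tsc22d3, Sgk1, Tat and Dusp1, did not meet the definition, and the list's median was 0.28, 0.61 and 0.35 with NICD1, NICD2 and NICD1&2. Leaving out 1 array moved the NICD1 median to between 0.14 (without GFP 1) and 0.46 (without GFP 3), and the NICD1&2 median to between 0.15 (without GFP 1) and 0.58 (without GFP 2). Their part in the Ciart and Per1 values was not tested.

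Of 8 temperature and heat shock genes, 3 met the definition with NICD1 (Hspa1a 1.15, Hspa1b 1.02 and Hsph1 0.97), and 1 each with NICD2 (Hsph1 0.88) and NICD1&2 (Hsph1 1.06), all higher and with limma adjusted p between 0.192 and 0.826, beside 1.75%, 1.75% and 5.14% of all genes. Hspa1a and Hspa1b are near-identical copies whose probes may not tell them apart, so that they may count as 1 gene. Hsph1, a large heat shock protein, read 2.19 to 2.57 with GFP and 2.93 to 3.81 over all NICD arrays. The list's median was 0.47, 0.16 and 0.24, and the cold-induced Cirbp and Rbm3 did not meet the definition. Leaving out 1 array moved the NICD2 median to between 0.02 (without NICD2 3) and 0.34 (without NICD2 2), and the NICD1&2 median to between 0.07 (without NICD1&2 2) and 0.41 (without NICD1&2 1), and with normexp the latter was 0.008.

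**Figure D5:**
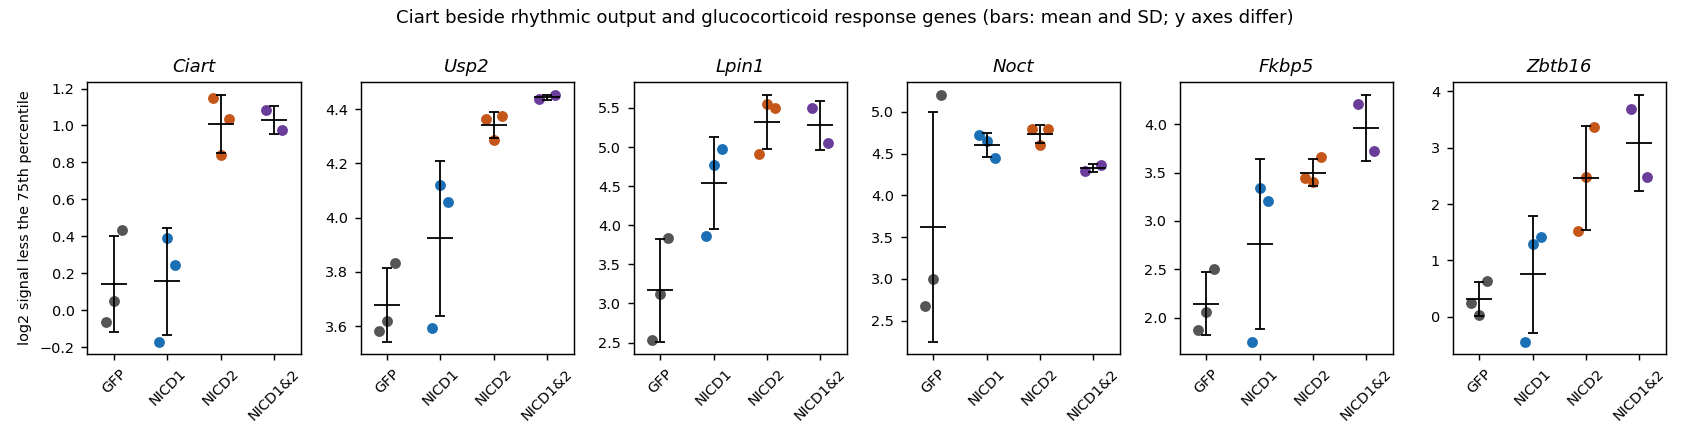
Log2 signal less the array's 75th percentile (y axis, a separate scale for each gene) of Ciart, Usp2, Lpin1, Noct, Fkbp5 and Zbtb16 on each array (points) by group (x axis), with mean and SD as bars. Usp2, a deubiquitinase and clock output, was added after its values were seen and lies between 4.28 and 4.45 on the arrays with the NICD2 vector and between 3.58 and 4.12 on the others.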

How the data were processed

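Gene expression in liver was measured on 11 one-colour (Cy3) arrays. Per the file headers, the intensity of each spot was background-subtracted, spatially detrended and floored by the Feature Extraction software before deposition, with flags for signals well above background and for saturation. In the table deposited by the authors, log2 values had each array's 75th percentile subtracted. The values used here were computed in the same way from the processed intensities, with spots of a probe averaged and 3671 control spots left out. They differed from the deposited table by at most 0.00894 (log2) on the clock probes. The methods name another array format and RNA kit than the files and labels.

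Probes flagged as well above background on 2 or more of 11 arrays were fitted in limma 3.58.1 (R 4.3.3; lmFit, eBayes, a mean per group over all arrays), with Benjamini-Hochberg adjustment over 36055 probes. A gene was called at an adjusted p of 0.05. The methods list several tests of group differences and do not say which gave the study's P for the arrays. Permutation tests used scipy 1.17.1, two-sided. The fit was tested on simulated data. Symbols came from RefSeq accessions: 32989 probes matched 22907 genes, and names in older designs can be out of date.

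All 10 clock genes are given by their brightest tested probe. Fits of clock genes are printed where the study's definition is met, with values or intervals for others chosen after they were seen. Genes of lists are named where they meet the definition, and the genes most like Arntl and Dbp are the 5 with the highest r. Genes and lists were chosen with earlier results of these data known. Replicate numbers were checked for pairing: the correlation of residuals had a median of 0.04 over 15 same-numbered pairs (-0.41 to 0.17) and 0.01 over 30 others, so they were not used to pair arrays. Alternatives were other normalizations and filters, the deposited table, blocks for replicate number and slide, smaller fits, means of probes, a stricter definition and leaving out each array.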

Additional observations from a re-analysis of the deposited data

How the results depend on the processing

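The 7 differences that met the study's definition were those of Ciart, Per1 and Npas2, picked for their size in these data. None of them changed sign under the alternatives run on them (145 values, of which 108 kept to that definition and 37 did not). Those of Npas2 rest on signals that were not well above background on any NICD array. The count called at an adjusted p of 0.05 was 0 in every comparison and alternative except normexp correction with quantile normalization, where it was 1 (Ciart) with NICD2 and NICD1&2 against GFP and with NICD1&2 against NICD1. The share of all genes called in that setting is not given here, so these counts cannot be set beside it. Leaving out each array gave 0 called in all 6 comparisons, and 0 to 1 relations with Arntl (1 without NICD2 2).

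Counts by the study's definition moved in several settings. For NICD2 against GFP the count of 3 was 1 with the percentile taken over the probes detected on every array, 0 with normexp and 0 with P under 0.05 and a fold change over 2. For NICD1&2 against GFP the count of 1 was 0 in these 3 settings. For NICD1 against NICD2 and for NICD1&2 against NICD1 the count of 1 was 0 in these 3 settings, with quantile normalization and with the mean of all tested probes. For NICD1&2 against NICD2 the count of 1, which was Npas2, was 0 with normexp, quantile normalization, a filter of all arrays and the stricter definition. It was 2 with the slide as a block, which added Arntl. Leaving out each array gave 1 to 3 for NICD2 against GFP (1 without GFP 1 or GFP 2; there, and in the first setting above, the 1 was Npas2, and 0 of the other 9 genes met the definition), 0 to 2 for NICD1&2 against GFP (0 without GFP 1 or GFP 2, 2 without GFP 3), 0 to 1 for NICD1 against NICD2 (0 without NICD1 1, NICD2 1 or NICD2 3), 0 to 1 for NICD1&2 against NICD1 (0 without NICD1&2 1), and 1 for NICD1&2 against NICD2. An unchanged count could hold another gene: it was Arntl in place of Npas2 for NICD2 against GFP without NICD2 2, Per1 in place of Ciart for NICD1&2 against GFP without NICD1&2 1, Cry1 in place of Ciart for NICD1&2 against GFP with the mean of all tested probes, Arntl in place of Ciart for NICD1&2 against NICD1 without NICD1 1, and Arntl in place of Npas2 for NICD1&2 against NICD2 without NICD2 2 or NICD1&2 1. The cause was not tested.

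The labels number the replicates alike in each group, but the numbers did not pair the arrays. With the replicate number as a block the count for NICD1&2 against GFP was 2 (Ciart and Per1), and no other count moved by over 1.5 times.

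Among list medians, 286 of 300 values moved by less than the spread between arrays. That of the rhythmic outputs was 0.31 with NICD1 without NICD1 1, 0.30 with NICD2 without GFP 1, and 0.22 to 0.59 with NICD1&2. Precision is limited by the number of arrays.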

Other observations

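Among the rhythmic outputs that did not meet the study's definition, Usp2 separated the arrays in the way of Ciart. Its values were 3.58, 3.62 and 3.83 with GFP, 3.59, 4.12 and 4.06 with NICD1, 4.37, 4.28 and 4.37 with NICD2, and 4.44 and 4.45 with NICD1&2. It was picked after its values were seen. Its log2 difference from GFP was 0.66 with NICD2 (limma adjusted p = 0.268) and 0.77 with NICD1&2 (adjusted p = 0.135). Por, the electron donor of liver cytochromes P450, was 7.03, 6.78 and 7.07 with GFP and 7.53 and 7.72 with NICD1&2. Elovl3, a fatty acid elongase with a daily rhythm in male liver, lay below GFP on all 5 arrays with the NICD2 vector, at 4.67, 4.82 and 4.49 with GFP, 4.31, 4.09 and 3.98 with NICD2, and 3.69 and 4.42 with NICD1&2.

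Bhlhe40, a repressor of the clock loop, was 3.20, 3.37 and 3.66 with GFP and lay between 2.42 and 3.14 on the 8 NICD arrays, below all GFP arrays (log2 differences of -0.54, -0.67 and -0.47 with NICD1, NICD2 and NICD1&2, limma adjusted p = 0.882, 0.489 and 0.361). Cyp7a1, the rate-limiting enzyme of bile acid synthesis, was 2.23, 2.5 and 2.95 with GFP, 3.36, 2.98 and 3.17 with NICD1, 3.47, 3.15 and 3.59 with NICD2, and 2.93 and 2.79 with NICD1&2. These genes were also picked after their values were seen, and none passed the adjusted test.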
